A study of Mus musculus with 4 samples.

Results

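The genes described here are 10 genes of antigen presentation in mouse alveolar macrophages (AMs), the resident phagocytes of the lung airspaces. They are the class II transactivator Ciita, the MHC class II genes H2-Aa, H2-Ab1, H2-Eb1 and H2-DMa, the invariant chain gene Cd74, and the co-stimulatory genes Cd80, Cd86, Cd40 and Cd83, out of 26089 genes in the annotation. SMAD4 binding near them was profiled with HT-ChIPmentation, in which chromatin is immunoprecipitated and a transposase adds sequencing adapters to it on the beads. AMs were taken by bronchoalveolar lavage from wild-type (WT) C57BL/6J mice aged 9 weeks, fixed and sorted, with no treatment and no deletion in any group. The series has 2 SMAD4 libraries (replicates 1 and 2) and 2 input libraries, which enter only as the control level behind each peak. There was no contrasting condition, so every value is a description of binding in resting AMs. A peak was placed at a gene when its summit lay in the gene body or within 50 kb of a transcription start site (TSS). The sources used here do not say whether the libraries came from separate mice, so the spread between them may be technical.

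SMAD4 is the common partner of the receptor-activated SMAD proteins, which enter the nucleus when TGFβ or a related ligand binds its receptor. MHC class II molecules display peptides from endocytosed material to CD4+ T cells. CIITA, a co-activator that does not bind DNA itself, is recruited to the X and Y boxes of class II promoters by RFX, CREB and NF-Y, and it sets how much class II a cell makes. CD80 and CD86 engage CD28 on T cells, CD40 receives CD40 ligand from them, and CD83 slows the turnover of class II and CD86 at the cell surface. AMs are known as weak presenters to naive T cells compared with dendritic cells.

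SMAD4 peaks found in both replicates lay mainly at 2 co-stimulatory genes, Cd86 and Cd83. None of them had H2-Aa, H2-Ab1, H2-Eb1 or H2-DMa as its nearest gene. Replicate 1 had 27 peaks at the 10 genes and replicate 2 had 35. In each list 22 of these overlapped a peak of the other list by at least 1 bp, and they formed 22 shared regions. That is 81.5% of the replicate 1 peaks (exact 95% interval 61.9 to 93.7%) beside 69.4% of all peaks in that list, and 62.9% of the replicate 2 peaks (44.9 to 78.5%) beside 59.2%. Of the 10 genes, 7 had at least 1 shared region, beside 39.1% of all 20923 protein-coding genes. Nearest to at least 1 shared region were 4 genes (Ciita, Cd80, Cd86 and Cd83), beside 21.5%. A shared region inside the gene body was present in 3 genes (Ciita, Cd86 and Cd83), beside 13.9%. Of the 22 regions, 16 were at co-stimulatory genes, with 6 at Cd86 and 7 at Cd83, and 6 were at the other genes. Counted by gene the split was more even, with a region at 3 of the 4 co-stimulatory genes and at 4 of the 6 others. By nearest TSS, 12 of the 13 regions assigned to a member belonged to co-stimulatory genes. The remaining 9 regions lay closer to a gene outside the list, 3 of them to H2-Ea, itself a class II chain gene. Other genes with a TSS within 50 kb numbered 0 to 2 at co-stimulatory genes, 1 at Ciita and 3 to 5 at Cd74 and the H2 genes. Gene bodies spanned 16.0 to 62.2 kb, 47.6 kb and 5.1 to 16.3 kb in the same order. Nearest-gene and gene-body counts depend on such spacing and length, for which no adjustment was made. The intervals cover counting error only, and with 10 genes these shares have no test.

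**Figure D1:**
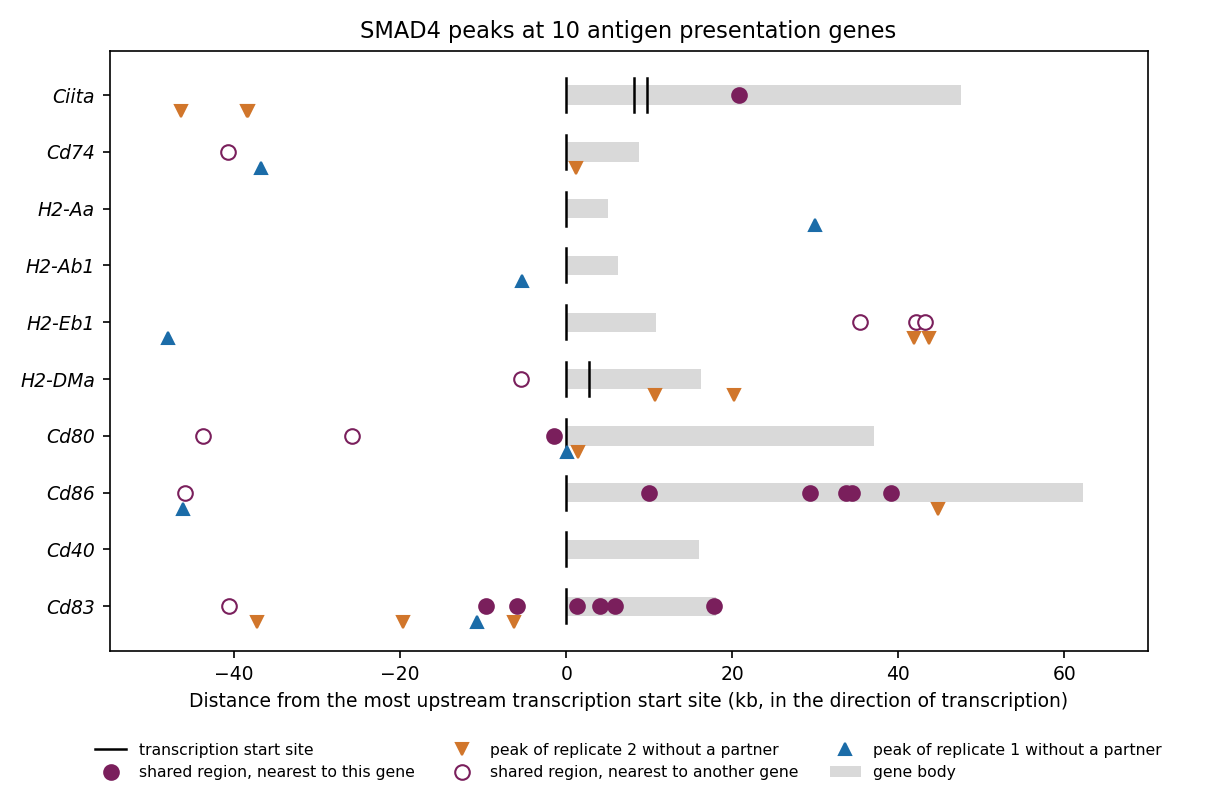
Position of each SMAD4 peak in kb from the most upstream TSS of the 10 genes, in the direction of transcription, with gene bodies as grey bars. Circles are the 22 shared regions, filled where the gene has the nearest TSS, and triangles, drawn just below, are the peaks without a partner. Filled circles gather in Cd86 and around Cd83, while the row of Cd40 is empty.

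Ciita had 1 shared region, and it was the only one nearest to any of the 6 class II presentation genes. The gene lies at chr16:10480072-10527640 on the plus strand of mm10 and has 3 annotated TSSs. The region, at chr16:10500598-10501094, was in intron 2 of 19, and its midpoint between the summits lay 11.1 kb downstream of the most downstream TSS. Its fold enrichment, the number of fragments stacked at the summit plus 1 over the control level plus 1, was 8.45 in replicate 1 and 11.7 in replicate 2. The summits held 25 fragments in each library and lay 18 bp apart. By the smaller of both folds the region ranked 3563 of 10964 shared regions, so that 67.5% were weaker. The 3 start sites are known to serve different cell types, and the most downstream kind is known to be induced by interferon-γ. No peak summit of either library lay within 11 kb of any of them. The window within 100 bp of the region's position is shown because it is the intronic site of the regulator of the whole class II set. Here and in the other windows, sequences are mm10 plus strand from RefSeq, and capitals mark the searched consensus strings of at least 6 letters on either strand. In Ciita they mark a SMAD string and, with an ETS string inside it, a PU.1 string.
Ciita intron 2, chr16:10500794-10500994: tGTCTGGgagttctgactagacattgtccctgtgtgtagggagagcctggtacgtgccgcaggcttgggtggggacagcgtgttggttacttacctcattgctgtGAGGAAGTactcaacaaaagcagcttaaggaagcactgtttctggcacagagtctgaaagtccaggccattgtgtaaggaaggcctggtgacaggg

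Cd74 on chromosome 18, which encodes the invariant chain that fills the class II groove until loading, had 1 shared region 40.8 kb upstream. The folds there were 6.82 and 8.57 on 20 and 18 fragments, and the nearest gene was Rps14, a ribosomal protein gene, 11.5 kb away. Inside Cd74 only replicate 2 had a peak, 1215 bp downstream of the TSS, with a fold of 4.51 on 9 fragments. That was a weak peak, since 7 fragments were the fewest called at the background control level in that library.

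At the class II chain genes on chromosome 17 the shared regions were all assigned to neighbouring genes. H2-Ab1 (chr17:34263227-34269418) and H2-Aa (chr17:34282744-34287823), which encode the β and α chains of I-A, had none within 50 kb. Their only peak was 1 of replicate 1 at chr17:34257831-34257955, 5323 bp upstream of the H2-Ab1 TSS, with a fold of 5.20 on 15 fragments. The nearest peak of replicate 2 was 83421 bp away from it. For H2-Aa the closest shared region was 53.4 kb upstream, just past the 50 kb limit, with folds of 10.1 and 9.02.

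H2-Eb1 (chr17:34305867-34316674), which encodes the β chain of I-E, had 3 shared regions by distance, but none within 35 kb of its TSS. All 3 were nearest to H2-Ea, the α chain locus of I-E, which is known to give no protein in C57BL/6 mice. The region at chr17:34340949-34341527 had folds of 10.1 and 9.02 on 33 and 19 fragments. It lay just past the 3′ end of H2-Ea and in the last exon of H2-Eb2 on the opposite strand. The regions at chr17:34347912-34348133 and chr17:34348981-34349247 lay 3.4 kb and 4.5 kb upstream of H2-Ea. Their folds were 4.55 and 4.51, and 9.75 and 5.87. None of the 3 lay in the body of H2-Eb1.

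H2-DMa (chr17:34122832-34139101) encodes a chain of the peptide exchange factor H2-M, which loads class II. It had 1 shared region, at chr17:34117126-34117766, 5.5 kb upstream of its more upstream TSS and in an intron of Brd2, a bromodomain protein gene. The folds were 7.47 and 6.77 on 22 and 14 fragments, and 62.7% of the 201 bp window was repeat-masked. A peak of replicate 2 alone covered the promoter of the neighbouring H2-DMb2, with a fold of 7.22 on 15 fragments. Another of replicate 2 alone lay in an H2-DMa intron, with a fold of 4.51 on 9 fragments.

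Cd86 had the strongest shared region of the set and 5 regions nearest to it, all in introns of its own body. The gene lies at chr16:36603869-36666077 on the minus strand. The strongest region, at chr16:36655714-36656469 in intron 1 of 7, was 9965 bp downstream of the TSS. It had a fold of 17.5 (exact 95% Poisson interval of the fragment count, 13.2 to 22.9) on 53 fragments in replicate 1. In replicate 2 the fold was 33.4 (26.3 to 41.9) on 73 fragments. It ranked 641 of 10964, with 94.2% of shared regions weaker. Next in the same intron came the region at chr16:36631536-36631933, 34.4 kb downstream, with folds of 8.77 and 14.0. The regions at chr16:36632188-36632648 and chr16:36636651-36637061 had folds of 6.50 and 7.12, and of 4.22 and 10.4. The region at chr16:36626965-36627238 in intron 2 had folds of 4.22 and 5.41. The 5 regions thus ran from near the lower end to the upper tail of all shared regions. A further region 45.9 kb upstream, at chr16:36711736-36712149, was in intron 3 of 7 of Ildr1, with folds of 8.45 and 15.8. The 6 regions by distance placed Cd86 above 98.0% of protein-coding genes, which had fewer. No peak lay within 9.9 kb of the Cd86 TSS. The windows of the strongest region and of the next one are shown because they carry most of the signal at the gene. In the former, capitals mark RUNX and CEBP strings, and in the latter a CEBP string.
Cd86 intron 1, 9965 bp downstream, chr16:36656012-36656212: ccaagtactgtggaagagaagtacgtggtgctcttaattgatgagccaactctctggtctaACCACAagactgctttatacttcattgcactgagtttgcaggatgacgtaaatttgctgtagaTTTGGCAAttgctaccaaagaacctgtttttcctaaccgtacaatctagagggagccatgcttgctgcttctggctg
Cd86 intron 1, 34.4 kb downstream, chr16:36631610-36631810: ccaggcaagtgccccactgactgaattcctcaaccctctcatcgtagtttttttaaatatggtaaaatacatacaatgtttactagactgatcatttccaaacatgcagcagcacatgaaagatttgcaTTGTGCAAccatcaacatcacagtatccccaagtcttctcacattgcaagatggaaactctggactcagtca

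Cd83 had the most shared regions, 7 by distance, of which 6 were nearest to it and 4 in its body. With summits required to lie within 100 bp of each other, Cd83 had 4 by distance, as had Cd86. The gene lies at chr13:43785112-43803133 on the plus strand and, at 18022 bp, is shorter than Cd86 (62209 bp). Of all protein-coding genes 98.9% had fewer than 7. Being nearest to 5 or more shared regions was found for 1.7% of protein-coding genes and for 2 of the 10, Cd86 and Cd83. The strongest region nearest to Cd83, at chr13:43802473-43803276, lay in the last exon, in the 3′ UTR. Its folds were 14.3 and 24.8 on 43 and 54 fragments, its summits were 3 bp apart, and it ranked 1123. In intron 2 of 4, 3 regions followed the TSS. The region at chr13:43786288-43786668, 1.3 kb downstream, had folds of 6.17 and 11.3. The region at chr13:43788948-43789464, 4.1 kb downstream, had folds of 7.80 and 15.3, and that at chr13:43790697-43791128, 5.9 kb downstream, 7.80 and 6.03. Upstream of the gene, the regions 6.0 kb and 9.7 kb from the TSS were weaker, with folds of 5.20 and 7.22, and of 4.77 and 5.87. The farthest region, 40.6 kb upstream and nearest to Gm20751, was again strong, with folds of 12.7 and 24.8. Each of the 3 intronic windows held the SMAD string GTCTGG, which is why they are shown. It lay 36, 79 and 53 bp from the position of its region in the order printed. In the second of these sequences the SMAD string shares letters with a RUNX string, so they run together in capitals. The other capitals mark ETS, RUNX, CEBP and GAS strings.
Cd83 intron 2, 1.3 kb downstream, chr13:43786315-43786515: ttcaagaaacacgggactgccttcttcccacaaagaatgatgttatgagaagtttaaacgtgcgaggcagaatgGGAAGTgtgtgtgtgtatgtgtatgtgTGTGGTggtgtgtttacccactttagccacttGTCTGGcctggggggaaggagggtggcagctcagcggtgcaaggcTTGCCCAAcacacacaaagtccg
Cd83 intron 2, 4.1 kb downstream, chr13:43789110-43789310: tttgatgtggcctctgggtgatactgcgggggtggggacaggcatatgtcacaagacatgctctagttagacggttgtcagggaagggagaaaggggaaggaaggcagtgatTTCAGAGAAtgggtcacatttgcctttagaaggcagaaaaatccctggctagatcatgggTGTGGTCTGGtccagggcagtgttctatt
Cd83 intron 2, 5.9 kb downstream, chr13:43790884-43791084: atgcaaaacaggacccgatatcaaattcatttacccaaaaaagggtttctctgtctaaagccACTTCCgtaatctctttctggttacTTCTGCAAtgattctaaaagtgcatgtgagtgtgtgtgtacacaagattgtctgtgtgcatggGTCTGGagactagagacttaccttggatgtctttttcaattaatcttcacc

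Cd80 was the member whose promoter came closest to a peak. The gene lies at chr16:38458933-38495958 on the plus strand, and its own shared region, at chr16:38457171-38457562, was 1.5 kb upstream of the TSS. The folds were 5.85 and 6.77 on 17 and 14 fragments, and the summits were 3 bp apart. At the TSS itself, replicate 1 had a peak with its summit 36 bp downstream, with a fold of 5.52 on 16 fragments. Replicate 2 had none there, and its nearest peak was 1371 bp from that summit, with a fold of 4.96 on 10 fragments. The strongest region within 50 kb was at another gene. It covered the promoter of Pla1a, a phospholipase gene, at chr16:38432837-38433524, with folds of 16.6 and 27.5 on 50 and 60 fragments and rank 766. A further region in a Pla1a intron, at chr16:38414975-38415231, had folds of 3.63 and 8.12. The window upstream of Cd80 is shown as the shared region closest upstream of any member TSS, with ETS and ISRE strings in capitals.
Cd80, 1.5 kb upstream, chr16:38457346-38457546: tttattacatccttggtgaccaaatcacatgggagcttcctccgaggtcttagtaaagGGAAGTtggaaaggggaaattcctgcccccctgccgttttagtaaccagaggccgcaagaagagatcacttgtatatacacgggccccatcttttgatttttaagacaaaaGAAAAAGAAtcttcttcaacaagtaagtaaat

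Cd40 (chr2:165055636-165071654) had no peak of either library by the 50 kb rule, as had 41.8% of protein-coding genes. The closest shared region was 108.6 kb upstream and nearest to Mmp9, a matrix metalloproteinase gene, with folds of 6.50 and 10.5. Cd40 was the only co-stimulatory member without a shared region.

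Replicate 2 gave the higher fold at 17 of the 22 regions, beside 87.2% of all shared regions. The median ratio of replicate 2 over replicate 1 was 1.39 at the 22 regions and 1.39 over all shared regions, whose 5th to 95th percentile range was 0.855 to 2.23. The folds of the libraries are not on a common scale, because the background control level was 2.08 fragments in replicate 1 and 1.22 in replicate 2. The 5 regions with the higher fold in replicate 1 were all 4 of those on chromosome 17 and 1 of the 18 others, the Cd83 region 5.9 kb downstream. Of the 4 on chromosome 17, 3 were nearest to H2-Ea, and 1 of these had nearly equal folds of 4.55 and 4.51. The lowest ratio was 0.602, at the region 4.5 kb upstream of H2-Ea. The Poisson intervals of both folds overlapped at 20 of the 22 regions. They did not at the strongest Cd86 region and at the region nearest to Gm20751, both higher in replicate 2. Among the 22, 2 were in the top 10% of shared regions by smaller fold, 4 in the top 25% and 11 in the lower 50%.

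**Figure D2:**
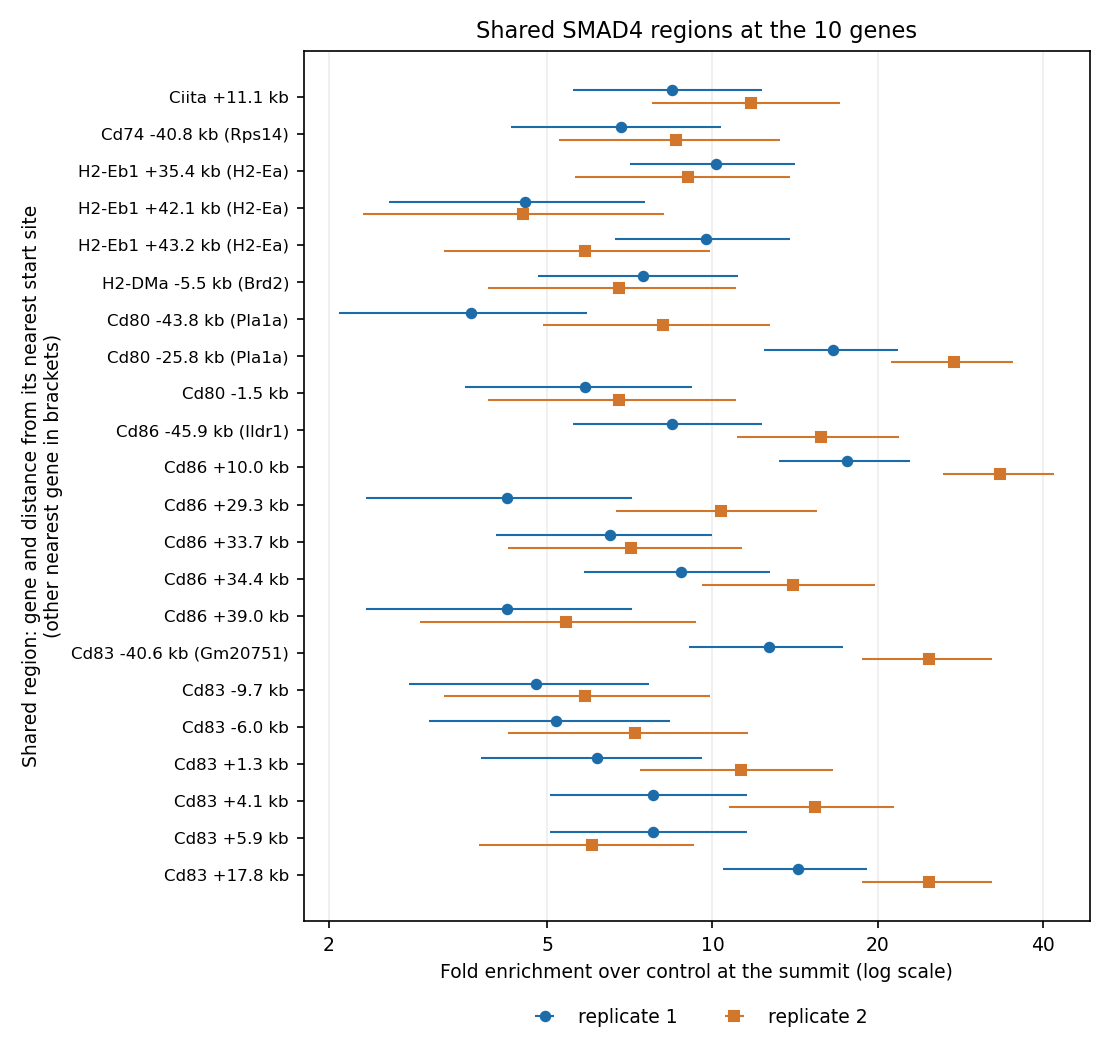
Fold enrichment of the 22 shared regions on a log axis, with exact 95% Poisson intervals of the fragment count, in replicate 1 (circles) and replicate 2 (squares). Rows give the gene and the distance from its nearest TSS, with another nearest gene in brackets. The Cd86 region 9965 bp downstream of the TSS has the highest fold in both libraries, 17.5 and 33.4.

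**Figure D3:**
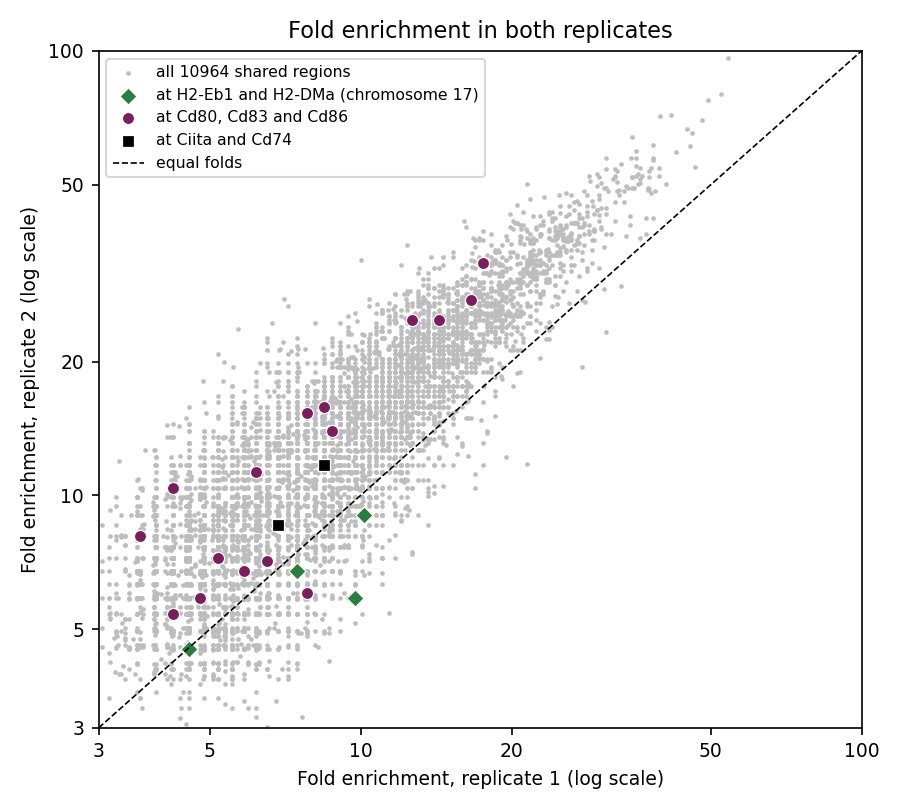
Fold enrichment in replicate 1 against replicate 2, both on log axes, for all 10964 shared regions (grey) and the 22 regions at the 10 genes (coloured by gene group). The 4 regions at H2-Eb1 and H2-DMa lie below the line of equal folds, 1 of them almost on it, and 17 of the other 18 lie above it.

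The peaks without a partner had median folds of 5.20 in replicate 1 and 5.41 in replicate 2, beside 5.52 and 6.77 over all peaks of each library. Replicate 1 had 5, with folds of 4.22 to 6.50 on 12 to 19 fragments, and 3 of them were nearest to a member. Replicate 2 had 13, with folds of 4.51 to 7.22 on 9 to 15 fragments, and 6 of them were nearest to a member. At Ciita all 3 were of replicate 2 and lay upstream, nearest to Tvp23a, the strongest with a fold of 6.28. At Cd83 there were 3 of replicate 2, the strongest 19716 bp upstream with a fold of 6.32, and 1 of replicate 1 with a fold of 4.22. At Cd86 replicate 2 had 1 in an intron, with a fold of 5.41, and replicate 1 had 1 in Ildr1, with a fold of 6.50. Near H2-Ea replicate 2 had 2, with folds of 5.41 and 5.87, and near Rps14 replicate 1 had 1, with a fold of 4.22. A peak of few fragments can be missed in the other library, and its absence there says only that it was not called at that depth.

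The windows of the 22 regions, 100 bp to each side of the position, were searched on both strands for 15 consensus strings. The SMAD string GTCTGG was in 6 (27.3%, exact 95% interval 10.7 to 50.2%) beside 11.2% of all shared regions. Of those 6, 3 were in Cd83 and the others in Ciita, Cd86 and the Brd2 intron near H2-DMa. The GC-rich SMAD string GGCGC was in 1, beside 5.24%. The CEBP string TTGCNNAA, for a factor family of myeloid cells, was in 6, beside 40.9% of all. The ETS string ACTTCC was in 9 (40.9%, beside 33.1%), and the longer PU.1 string GAGGAAGT, which contains the ETS string on its other strand, was in 2 (beside 8.0%). The RUNX string TGTGGT was in 5 (22.7%, beside 26.4%) and the AP-1 string TGANTCA in 3 (beside 12.3%). The interferon strings GAAANNGAA (ISRE) and TTCNNNGAA (GAS) were each in 3, beside 8.66% and 8.06%. AGGTCA, for nuclear receptors, and TGACG, the CRE core of the class II X2 box, were also in 3 each, beside 15.4% and 11.8%. The class II Y box CTGATTGG, the X1 string GNNACNGAT, the E-box CACGTG and the NF-κB string GGGANTTTC were in none, beside 0.857%, 6.76%, 3.65% and 0.885%. With 22 regions, a count of 0 has an exact upper limit of 15.4%. The share in all shared regions fell inside the interval for every string. A match describes letters only, not binding by the factor.

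**Figure D4:**
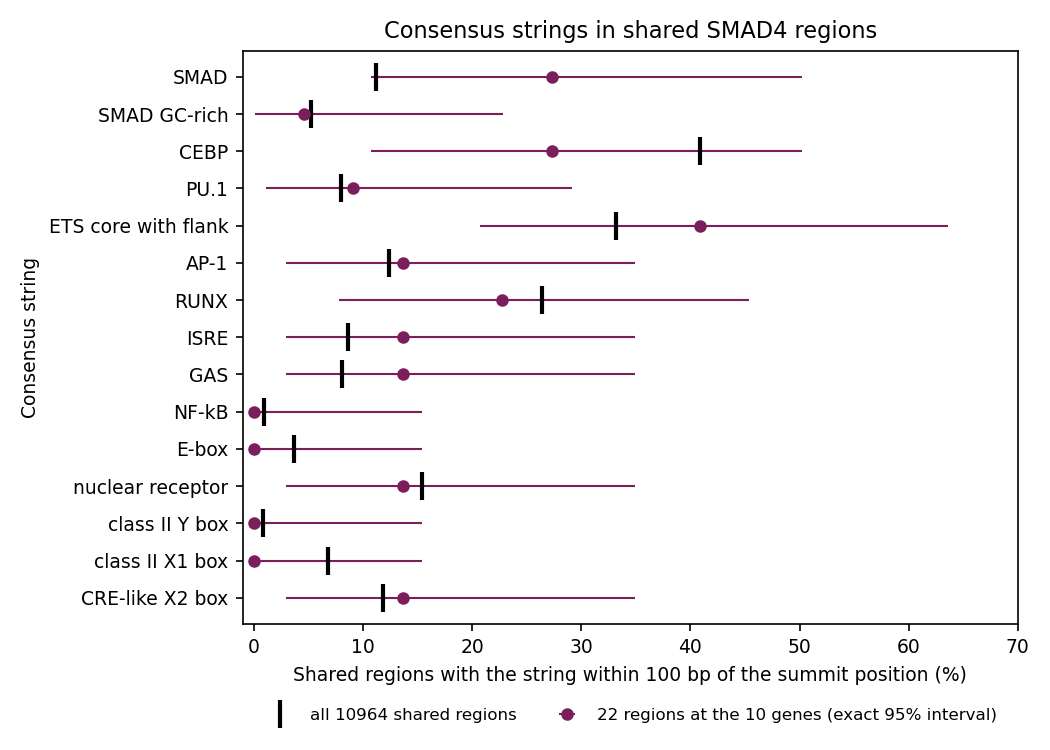
Percent of shared regions that hold each consensus string within 100 bp of the summit position, for the 22 regions at the 10 genes (points with exact 95% intervals) and for all 10964 shared regions (black bars). For the SMAD string the point stands at 27.3% and the bar at 11.2%, near the lower end of the interval.

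Strings of the class II boxes were found in some member promoters, and no member promoter held a shared SMAD4 region. In windows from 250 bp upstream to 50 bp downstream of the TSS, the Y box string was found in H2-Aa, H2-Ab1 and H2-Eb1, beside 4.69% of 26165 promoters of protein-coding genes, and in neither H2-DMa promoter. The X1 string was found in H2-Ab1, H2-Eb1 and the most downstream Ciita promoter, beside 7.16%. That Ciita promoter also held the ISRE, GAS and E-box strings, the letters of the elements known from its interferon-γ-induced start. The SMAD string was in the promoters of Cd74, H2-Eb1 and H2-DMa, beside 17.8% of all. The nearest summit of either library was 1215 bp from the Cd74 TSS, 35301 bp from that of H2-Eb1 and 5478 bp from a TSS of H2-DMa. Of the 13 member promoters only that of Cd80 held a peak summit, in replicate 1 alone.

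A wider list of 50 genes of antigen presentation had 26 with a shared region by distance (52%, beside 39.1% of protein-coding genes) and 17 nearest to one (34%, beside 21.5%). On this list, none of the other class II genes and class I genes was nearest to a shared region. H2-Ea, which was nearest to the 3 shared regions at H2-Eb1, was not on the list. Among 5 further class II genes 4 had a region within reach and 0 were nearest to one. The regions in their reach included ones already counted at H2-DMa and H2-Eb1. Among 12 class I genes, including B2m, H2-K1, Tap1 and Nlrc5, 3 had one and 0 were nearest. The ligands of the B7 and TNF families all had a region, 8 of 8, and 5 were nearest. The leading gene there was Pdcd1lg2, which encodes the PD-1 ligand PD-L2. It had 9 regions by distance and 7 nearest, the strongest in an intron with folds of 22.7 and 32.9. Cd274, which encodes PD-L1, had a region in an intron with folds of 10.1 and 10.4, and the promoter of Tnfsf4, the gene of OX40 ligand, had one with folds of 6.17 and 8.12.

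Among 13 regulators of class II, 5 had a region by distance (38.5%, beside 39.1% of protein-coding genes). Nearest to one were 6 (46.2%, beside 21.5%). The strongest region of the whole list was in an intron of Marchf1, at chr8:66342545-66343709. Marchf1 encodes a ubiquitin ligase known to mark class II and CD86 for degradation. The folds were 35.4 and 55.0 on 108 and 121 fragments, and the region ranked 39 of 10964. The interferon-γ receptor gene Ifngr2 had a region 1082 bp downstream of its TSS with folds of 8.45 and 11.3. Creb1 was nearest to 6 regions although it had none within 50 kb, and the strongest, 193948 bp upstream, had folds of 9.10 and 9.02. The factors that assemble on the X and Y boxes, Rfx5, Rfxap, Rfxank, Nfya, Nfyb and Nfyc, had 0 shared regions.

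Of 5 genes for invariant chain cleavage and antigen processing, 4 had a region and 3 were nearest to one. Among all protein-coding genes the shares were 39.1% and 21.5%. The strongest was at the promoter of Ctsl, the gene of cathepsin L, with folds of 8.45 and 10.8. Lgmn, the gene of the asparagine endopeptidase, had one 6008 bp upstream with folds of 6.17 and 8.57, and Sppl2a, a protease of the invariant chain fragment, had one in an intron with folds of 3.90 and 6.32. Of 7 T cell partner genes, 2 had a region by distance (28.6%) and 3 were nearest to one (42.9%). They were Ctla4 with folds of 6.50 and 6.32, Cd28 with 6.17 and 9.02, and Pdcd1 with 3.88 and 7.12. A region nearest to a gene that AMs are not known to use shows only that no other TSS is closer.

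**Figure D5:**
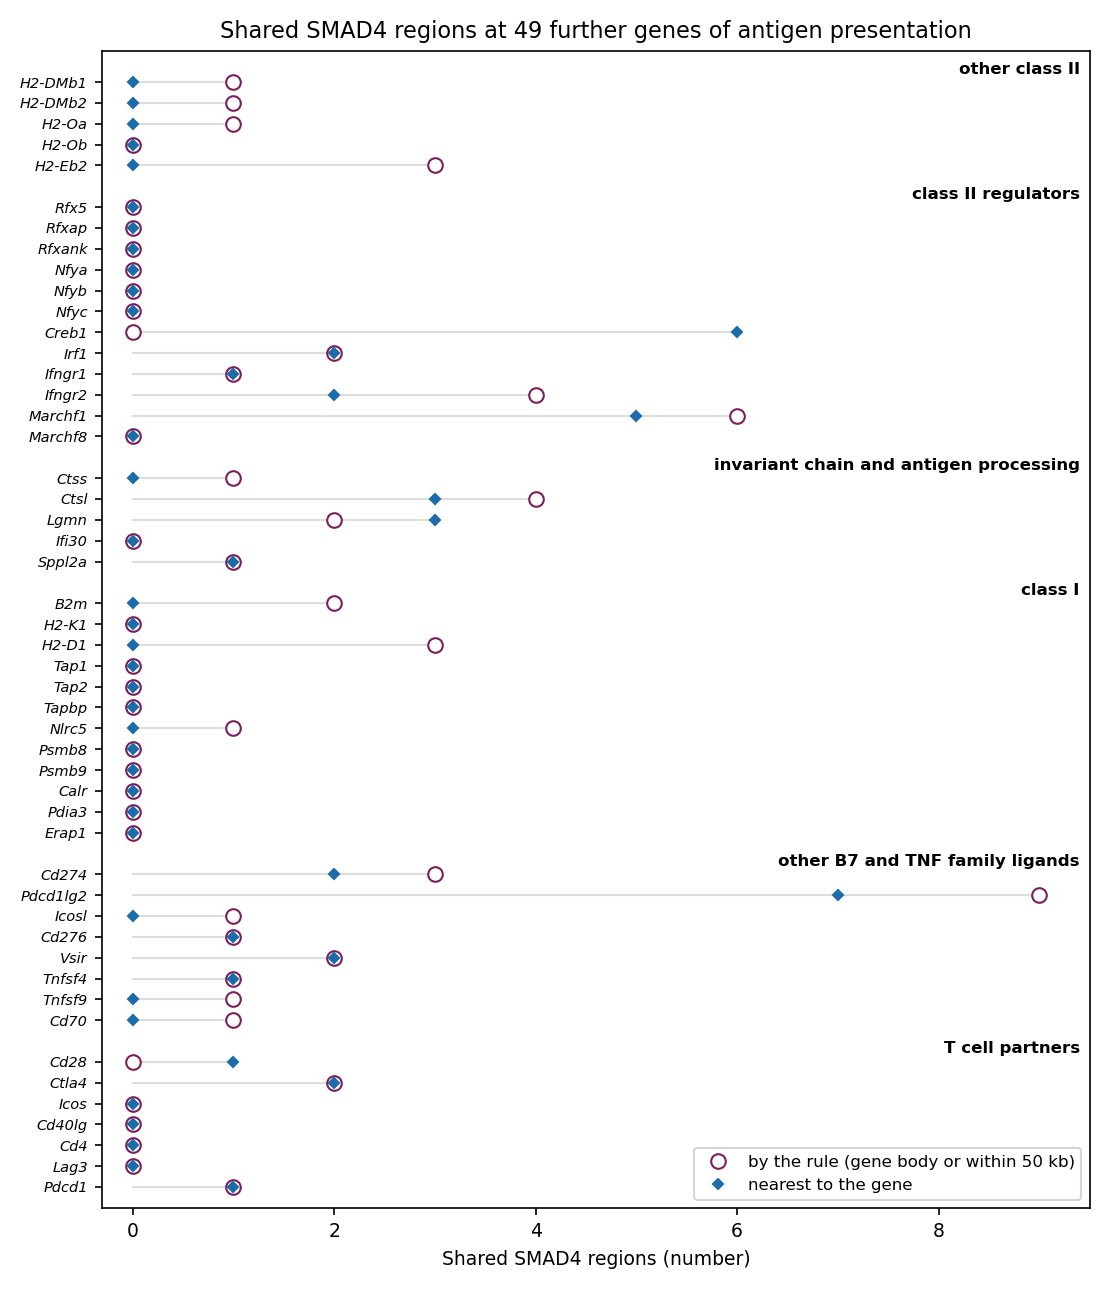
Number of shared SMAD4 regions at 49 of the 50 further genes of antigen presentation, by the 50 kb rule (open circles) and by nearest TSS (diamonds), grouped by role. Pdcd1lg2 has the most by both counts, 9 and 7 regions. The class I genes and the other class II genes, which do not include H2-Ea, have no diamond above 0.

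The shared region just inside the distance limit was the Ildr1 region 45.9 kb from the Cd86 TSS, and just outside lay one 50.8 kb from Cd74, nearest to Ndst1, with folds of 4.11 and 5.61, and one 51.5 kb from Cd86, nearest to Ildr1, with folds of 9.10 and 11.7. The cell label was set beside marker genes, though binding near a gene is no measure of its expression. All 9 AM markers had a shared region and 8 were nearest to one, with the highest folds, 45.8 and 65.4, at Chil3. The other 15 markers were of B cells, T cells, dendritic cells, neutrophils, type II cells and endothelial cells. Of these, 6 had a shared region (40%, beside 39.1% of protein-coding genes) and 2 were nearest (13.3%, beside 21.5%), Xcr1 and Pecam1. Those 6 included all 4 dendritic cell markers (Zbtb46, Flt3, Xcr1 and Ccr7), so a shared region within reach did not separate AM from dendritic cell markers. By the region nearest to each, the strongest Cd86 region (17.5 and 33.4) lay below those of Chil3, Pparg (33.8 and 49.6) and Car4 (30.9 and 42.9). It lay above those of Itgax (16.2 and 25.3), Marco (15.9 and 27.5), Ear2, Bhlhe41 and Siglecf.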

How the data were processed

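After adapter trimming (Cutadapt) and alignment to mm10 (Bowtie2), the authors removed duplicates and improper pairs and called SMAD4 peaks in each library separately with MACS3 against input at a q-value limit of 0.05. The deposited columns are a fold ratio at the summit, a −log10 p-value, a −log10 q-value and a score derived from q that was not used. The labels and the study's methods name different suppliers of the SMAD4 antibodies. Input libraries were not analysed here on their own.

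Fold enrichment and p were solved together for the whole number of fragments at each summit. In pileups simulated with the same formulas 1637 of 1637 were recovered for replicate 1 and 1902 of 1902 for replicate 2. No simulated pileup was as small as the weakest summits called, so this checks the solving step only. At the deposited peaks the solved values gave back −log10 p to within 0.000516 in replicate 1 and 0.00054 in replicate 2. Peaks had a median of 17 and 14 fragments, and 79.3% and 80.9% of summits were at the background control level. Sequencing totals were not used here. Shared regions were merged intervals of peaks that overlapped by at least 1 bp, placed at the mean of both strongest summits. Gene models were 45657 curated RefSeq transcripts of GRCm38.p6, the mm10 assembly. Regions were assigned in order to promoters (1 kb upstream to 100 bp downstream), transcription ends (100 bp upstream to 1 kb downstream), exons, introns or intergenic sequence. Coordinates are 1-based.

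With 1 condition no test was made: counts stand beside the share of all protein-coding genes or shared regions, with exact Clopper-Pearson or Poisson 95% intervals, which cover counting error only. The named genes were all 10 members and up to 3 genes of each group of the wider list with the highest smaller fold at a region nearest to them. The values of 1 gene of the wider list are not reported here, though the list's counts include it. The members, lists and strings were chosen with earlier results of these data known. Alternatives were stricter peak and overlap limits, other distances, predicted transcripts, wider string windows and each library alone. Python 3.11.15, numpy 2.4.6, scipy 1.17.1 and matplotlib 3.10.9 were used.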

Additional observations from a re-analysis of the deposited data

How the results depend on the processing

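Of 211 values recomputed, 178 stayed within 1.5 times the reported one. The 4 genes nearest to a shared region were 4 under every stricter limit on q, fold, overlap or peak number and with predicted transcripts. Counts within a distance moved most. With 10 kb in place of 50 kb, peaks were 16 in replicate 1 and 19 in replicate 2, and shared regions were 14. Of the 10 genes 5 then had a region, beside 20.6% of protein-coding genes, and 16 genes of the wider list had one. With 25 kb, peaks were 17 and 21, shared regions 14, and 5 of the 10 genes had a region, beside 28.1%. At both distances Cd74 and H2-Eb1 had 0 shared regions and Cd80 had 1. Taking all peaks of a single library in place of shared regions gave 27 to 35 regions, 7 to 9 genes with a region and 5 to 6 genes nearest to one of the 10, 46.6 to 53.4% and 27.2 to 31.2% of protein-coding genes, and 30 to 35 and 20 to 25 genes of the wider list. The 35 regions are those without replicate 1, where Ciita had 4 in place of 1. Without replicate 2, H2-Aa and H2-Ab1 each had 1 peak. At H2-Eb1 the count fell from 3 to 1 under 50% reciprocal overlap or with the 10000 peaks of smallest q of each list, and at H2-DMa from 1 to 0 under the former. With summits within 100 bp, shared regions were 15, and the count fell from 7 to 4 at Cd83 and from 6 to 4 at Cd86. String matches, summed over the 15 strings and 22 regions, rose from 44 to 70 with windows of 200 bp to each side and to 78 over whole regions, which are longer by construction. No paired analysis was possible because the series has a single condition and the libraries were numbered by accession. Depth limits the weak peaks, since 9 fragments in replicate 1 and 7 in replicate 2 were the fewest called at the background control level.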
